A study of Allium mongolicum with 12 samples.

Results

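The transcripts described here had a passing dip: in roots of Allium mongolicum they were lowest after 24 h in a saline-alkali solution and back near their starting level at 48 h and 72 h. They are 101 of the 98328 assembled transcript features of the study. They were chosen by their measured levels in CPM, the estimated count scaled to the library's total, in all 12 libraries. A feature had to average at least 5 CPM in unstressed roots, to have all 3 libraries of 24 h below all 9 other libraries, to have a 24 h mean at least 1.3-fold below the lowest of the other group means, and to have 48 h and 72 h means within 1.5-fold of the unstressed mean. The rule allows at most 200 transcripts, a limit that was not reached.

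Allium mongolicum is a wild onion of dry steppe. Seedlings grown for 45 days were moved to diluted Hoagland nutrient solution and then exposed to sodium chloride, sodium sulfate, sodium bicarbonate and sodium carbonate in the proportions 1 to 9 to 9 to 1, at a total of 150 mmol/L. There were 3 libraries of each of 4 groups: CK (unstressed, 0 h), T24 (24 h of treatment), T48 (48 h) and T72 (72 h). No strain, line or genotype is named in the labels, and unstressed roots taken at 24, 48 or 72 h are not analysed here, so treatment, elapsed time and harvest cannot be told apart. Roots of 20 seedlings were taken per group, with no word in the labels on how they were shared out among its libraries. The p-values below rest on differences between libraries alone, and those may be technical.

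A mixture of neutral and alkaline sodium salts loads roots with sodium, withholds water and raises the pH around them, which makes iron, phosphate and other nutrients harder to take up. In Arabidopsis roots, growth slows soon after a move into salt and later partly resumes, and many transcripts change for a while and then return. The study's title points to phenylpropanoid metabolism, which turns phenylalanine into lignin and flavonoids. The deposited table gives assembly IDs and pairs none of them with a gene name, so the root label could not be checked against marker genes and no transcript could be assigned to a pathway. Features may be partial or repeated copies of a transcript, which the table does not settle. What follows describes levels, their variation and what the IDs share. In whole roots, less RNA per cell and fewer cells that hold the transcript cannot be told apart.

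Library totals lay between 23099287 and 26388120 counts, so that 5 CPM stood for 115 to 132 counts. The T24 libraries varied less among themselves than those of any other group. Among the dip transcripts the median coefficient of variation was 22.9% in CK, 8.34% at T24, 22.0% at T48 and 18.0% at T72. Among the 19761 features with a CK mean of at least 5 CPM it was 18.1% in CK, 6.09% at T24, 20.2% at T48 and 13.1% at T72. Narrow T24 groups make it easier for all 3 to lie on one side of the rest.

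The dip was shallow in most of the 101 transcripts. The T24 mean was 40.7% below the CK mean at the median, with quartiles of 34.3% and 49.6% and extremes of 23.2% and 76.2%. The drop from CK was at least 1.5-fold in 78 transcripts, at least 2-fold in 24 and at least 3-fold in 1. Measured against the lowest of the CK, T48 and T72 means, the fold was 1.5 at the median, at least 1.5 in 50 transcripts and at least 2 in 4. These values describe what the rule selected and carry no test.

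In every T24 library most dip transcripts sat well under their CK mean. The median level relative to CK was 0.609 in T24 replicate 1, 0.586 in replicate 2 and 0.579 in replicate 3. In the 9 other libraries it lay between 0.865 and 1.05. Over all features with a CK mean of at least 5 CPM the same median was 0.989 to 1.00 in the T24 libraries. That median depends on the scaling: with TMM factors, which the model below uses, the median log2 change of these features at T24 against CK was -0.14, and with library totals alone 0.00. Summed over the 101 transcripts, the level was 2284, 2564 and 2676 CPM in CK, 1484, 1514 and 1423 CPM at T24, 2424, 2482 and 2706 CPM at T48, and 2603, 2525 and 2142 CPM at T72.

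**Figure D1:**
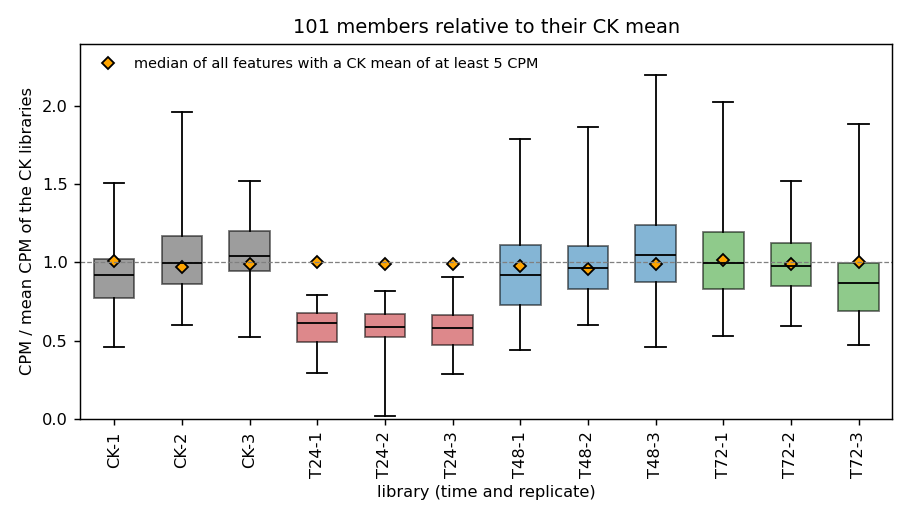
Level of the 101 dip transcripts in each library, as CPM divided by the transcript's CK mean. Boxes show the quartiles and median, whiskers the lowest and highest transcript, and diamonds the median of all features with a CK mean of at least 5 CPM. The 3 T24 boxes have medians of 0.579 to 0.609, and T72 replicate 3 has the lowest median of the other 9 libraries, at 0.865.

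The separation of the T24 libraries from the rest was often narrow. In the CK group or at T48 or T72, the lowest single library exceeded the highest T24 library by a factor of 1.07 at the median, with quartiles of 1.03 and 1.17 and a maximum of 1.40. In 11 of the 101 transcripts the 95% Poisson intervals of those 2 libraries did not meet, and in the others they overlapped. These intervals allow for counting error at most, with the estimated counts taken as counts of reads, and the rule had already set those 2 libraries apart. The same count was not made over all features, so nothing is read from it. All T24 libraries lay below all 9 others in 275 of the 19761 features with a CK mean of at least 5 CPM, or 1.39%. Of those, 154 also met the required depth. Another 53 of the 154 were left out because T48 or T72 was too far from CK, most often because T72 (39 features) or T48 (29 features) was still more than 1.5-fold below CK.

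The thresholds cut through a continuum. The transcript just inside the depth limit had a fold of 1.3003 and the feature just outside had 1.2999. For the separation of libraries the nearest values were 1.002 and 0.994, for the return to CK 1.47-fold and 1.51-fold, and for the CK mean 5.27 and 4.81 CPM. A further 284 features missed only the separation, 105 missed only the depth and 131 missed only the CK minimum.

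The same rule with another time in the place of T24 found 240 features with a dip at T48 and 217 with a dip at T72. Turned round, it found 112 features with a passing rise at T24. In CPM by library totals, dips at T24 were thus the least numerous of the 4 patterns, although the T24 libraries were the tightest. These counts come from overlapping sets of libraries, and their difference was not tested. The order may depend on the scaling. With TMM or RLE factors 148 or 140 features had a dip at T24, and the other patterns were not recounted with them.

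**Figure D2:**
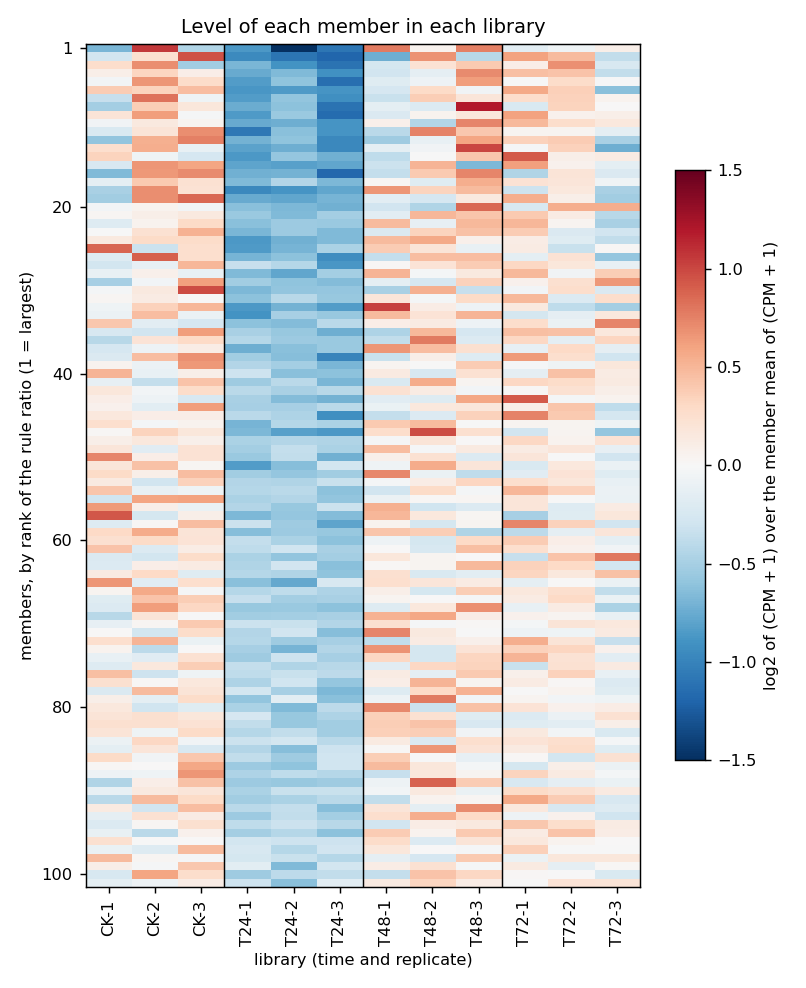
Each row is 1 of the 101 dip transcripts, ordered by the ratio of (lowest other group mean + 1) to (T24 mean + 1), and each column is a library. Colour gives the log2 of (CPM + 1) over the transcript's mean over the 12 libraries: the 3 T24 columns are blue throughout, which the rule requires, while the other 9 vary from row to row.

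The transcript with the largest ratio, TRINITY_DN40958_c1_g2_i1_3, was faint. It had 2.69, 11.4 and 3.35 CPM in CK, 2.27, 0.0965 and 1.80 CPM at T24, 9.17, 5.18 and 9.06 CPM at T48, and 4.32, 4.70 and 5.30 CPM at T72. CK replicate 2 stood far above the other 2 CK libraries, and T24 replicate 2 held only 2.42 counts. The T24 mean was 1.39 ± 1.14 CPM, against 5.83 ± 4.88 CPM in CK (SD, n = 3 each), so the CK spread was nearly as large as its mean. Without CK replicate 1, CK replicate 2 or T48 replicate 2 it no longer met the rule.

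The next, TRINITY_DN41832_c4_g1_i1_1, was more abundant. It had 17.7, 25.8 and 43.1 CPM in CK, 10.7, 9.61 and 8.91 CPM at T24, 12.6, 35.1 and 16.0 CPM at T48, and 33.4, 30.5 and 16.5 CPM at T72. The T24 libraries agreed closely, at 9.73 ± 0.888 CPM, while CK averaged 28.8 ± 13.0 CPM (SD, n = 3 each). T48 replicate 1, at 12.6 CPM, lay nearer to the T24 libraries than to any CK library. It met the rule under 10 of the 12 omissions of a library, and failed without CK replicate 1 or T48 replicate 2.

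Neither of these was among the transcripts that kept to the rule throughout. A total of 29 transcripts still met the rule whichever of the 12 libraries was left out, 80 met it under both TMM and RLE scaling, and 26 did so in all of these cases. These 26 had T24 means 31.6% to 60.5% below CK, with a median of 41.7%, and CK means of 5.58 to 92.9 CPM. They were picked after their values were seen, and 4 of them carry ID suffix 1, 7 suffix 2, 8 suffix 3 and 7 suffix 4.

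Among those 26, the transcript of rank 4 by ratio had the largest ratio. It had 51.2, 60.2 and 51.3 CPM in CK, 28.1, 30.1 and 25.2 CPM at T24, 39.3, 43.6 and 79.0 CPM at T48, and 66.3, 65.2 and 36.8 CPM at T72. CK was steady and T24 was steady, but T48 replicate 3 stood far above T48 replicate 1, and T72 replicate 3 lay well under both other T72 libraries. Its T24 mean of 27.8 ± 2.44 CPM was 48.7% below the CK mean of 54.3 ± 5.16 CPM (SD, n = 3 each).

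The transcript of rank 6 had tight CK and T24 groups. It had 25.7, 24.9 and 27.3 CPM in CK, 10.3, 10.4 and 10.1 CPM at T24, 16.2, 24.0 and 18.8 CPM at T48, and 29.4, 25.4 and 12.3 CPM at T72. The T24 mean was 10.3 ± 0.158 CPM, which is 60.5% below the CK mean of 26.0 ± 1.23 CPM (SD, n = 3 each). All T48 libraries stayed below all CK libraries, and T72 replicate 3 came close to the T24 level.

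In the transcript of rank 5 no T72 library lay near T24. It had 28.1, 46.1 and 35.1 CPM in CK, 15.7, 18.7 and 12.7 CPM at T24, 25.2, 27.4 and 45.0 CPM at T48, and 28.8, 35.0 and 28.4 CPM at T72. Here the lowest of the 9 other libraries was 1.35 times the highest T24 library. The T24 mean of 15.7 ± 3.02 CPM was 56.9% below the CK mean of 36.4 ± 9.08 CPM (SD, n = 3 each).

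The transcript of rank 10 had its highest mean at T72. It had 69.3, 79.8 and 74.1 CPM in CK, 42.5, 42.9 and 38.5 CPM at T24, 76.3, 52.9 and 120.4 CPM at T48, and 101.8, 86.9 and 80.8 CPM at T72. All T72 libraries lay above all CK libraries, while the T48 libraries spanned them on both sides. The T72 mean was 1.21 times the CK mean, within the 1.5-fold that the rule allows.

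The transcript of rank 48 had the lowest adjusted p of the 101 for T24 against CK in the model below. It had 51.0, 53.7 and 50.5 CPM in CK, 34.1, 35.1 and 34.6 CPM at T24, 47.4, 54.7 and 47.8 CPM at T48, and 59.8, 49.6 and 55.8 CPM at T72. The drop was modest, 33.1%, but the groups hardly varied: 34.6 ± 0.497 CPM at T24 and 51.7 ± 1.71 CPM in CK (SD, n = 3 each). Its T48 and T72 libraries overlapped the CK libraries.

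The middle and the end of the list were less distinct. The transcript of median ratio had 9.71, 11.9 and 8.66 CPM in CK, 4.29, 5.11 and 6.85 CPM at T24, 8.02, 13.0 and 9.70 CPM at T48, and 7.06, 9.59 and 7.83 CPM at T72, and its highest T24 library nearly touched its lowest T72 library. The transcript of lowest ratio had 5.07, 5.39 and 6.28 CPM in CK, 4.43, 3.37 and 5.06 CPM at T24, 6.42, 7.40 and 6.32 CPM at T48, and 5.71, 6.78 and 6.73 CPM at T72. Its T24 replicate 3, at 5.06 CPM, and CK replicate 1, at 5.07 CPM, were nearly equal.

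The most abundant dip transcript, rank 94 by ratio, dipped by only 24.7%. It had 201.7, 237.8 and 274.5 CPM in CK, 178.1, 185.4 and 174.0 CPM at T24, 190.6, 251.4 and 256.8 CPM at T48, and 308.1, 280.1 and 254.4 CPM at T72. The T24 libraries agreed closely (179 ± 5.77 CPM), while CK averaged 238 ± 36.4 CPM (SD, n = 3 each). T48 replicate 1 was only slightly above the highest T24 library, and leaving out any of 5 libraries took the transcript off the list.

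**Figure D3:**
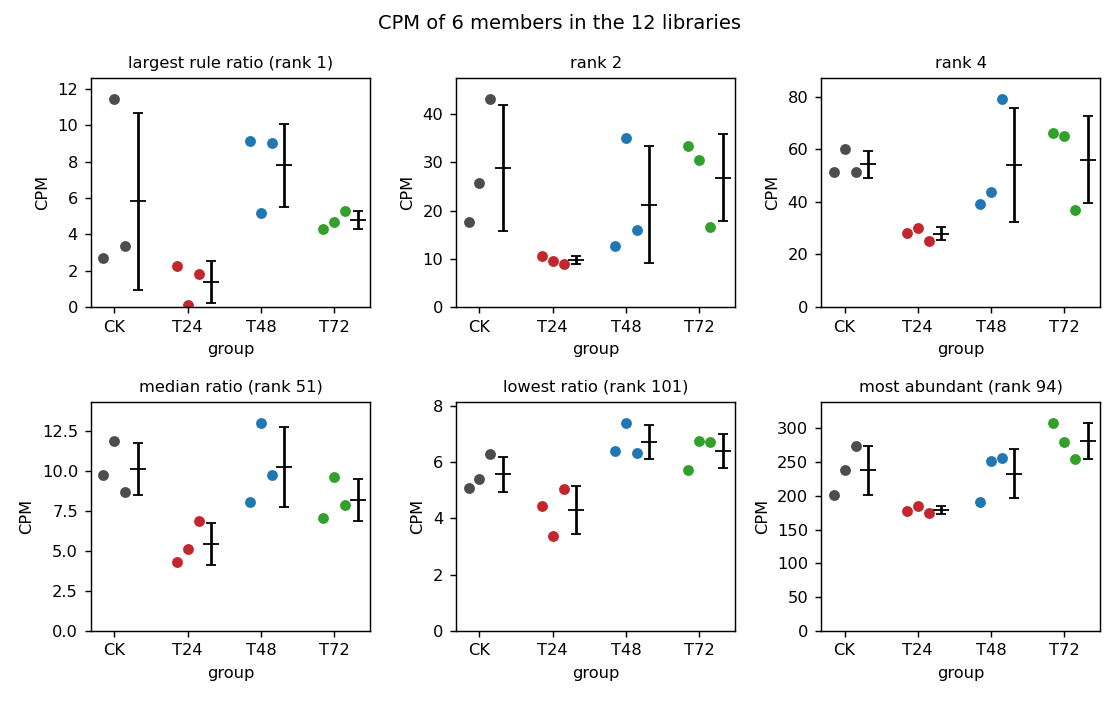
CPM of 6 dip transcripts in the 12 libraries, with points for the libraries (replicates 1 to 3 from left to right) and a bar for the mean ± SD of each group. The T24 points lie below all others in each panel, as the rule requires, and in ranks 51 and 101 the highest T24 point nearly meets the lowest of the others.

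Most dip transcripts were of low to middle abundance. Their median CK mean was 13.8 CPM, against 19.3 CPM for all features with a CK mean of at least 5 CPM. In the range of 5 to 10 CPM, 37 of 5261 features were dip transcripts (0.703%), and at 50 CPM or more 13 of 4395 were (0.296%). The median dip was 40.8% at 5 to 10 CPM, 38.0% at 10 to 20 CPM, 40.5% at 20 to 50 CPM and 47.0% above that. The largest single dip was 76.2% at 5 to 10 CPM, 60.5% at 10 to 20 CPM, 66.3% at 20 to 50 CPM and 57.7% at 50 CPM or more. The rule limits both the dip and the CK level, and a relation between them was not tested.

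In edgeR's quasi-likelihood model of all 12 libraries with TMM scaling, 36 of the 101 dip transcripts were called lower at T24 than in CK (Benjamini-Hochberg adjusted p below 0.05) and 0 higher. Of all 76273 features tested, 1.5% were called lower and 2.62% higher, and of those with a CK mean of at least 5 CPM, 5.39% and 2.1%. The rule used this contrast, so nothing is read from the count. The 36 had a median CK mean of 29.4 CPM and a median dip of 45.7%, and the other 65 had 10.1 CPM and 39.0%. The median log2 change at T24 against CK was -0.89 over the 101 transcripts, -0.14 over all features with a CK mean of at least 5 CPM and 0.08 over all features tested. With library totals as the only scaling these were -0.75, 0.00 and 0.21, so all moved up by about as much.

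The calls at T24 depended on single libraries and on the model. Leaving out CK replicate 1, 2 or 3 gave 21, 15 or 6 calls. Leaving out T24 replicate 1, 2 or 3 gave 0, 1 or 0, and leaving out T72 replicate 1 gave 21. Calls over all features, both directions together, fell too, from 3145 of 76273 tested. They were 2029, 2149 and 1346 without CK replicate 1, 2 or 3, and 302, 309 and 357 without T24 replicate 1, 2 or 3. Without T72 replicate 1 they were 2346. With a library left out, 81745 to 82523 features were tested. Library totals alone gave 13 calls among the 101, with 3329 of 76273 over all features. DESeq2 gave 80, with 7904 of 82557 over all features. With the T24 libraries averaged to 1 sample, the spread is taken from the other groups, and calls are not given. The median log2 change over the 101 was then -0.87.

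**Figure D4:**
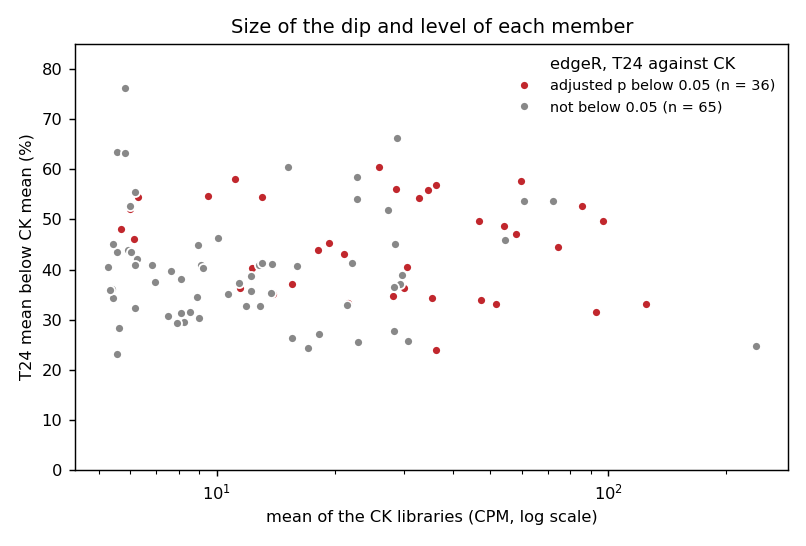
Size of the dip (T24 mean below CK mean, in %) against the CK mean in CPM on a log axis, for each of the 101 dip transcripts. The 36 called lower at T24 against CK in edgeR are marked apart from the 65 others, and lie at higher levels, with a median of 29.4 CPM against 10.1 CPM.

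At T48 the transcripts were higher than at T24, with a median log2 change of 0.82 over the 101 and 0.03 over all features tested. In edgeR 15 of 101 were called higher at T48 than at T24, and 0 lower, where 0.467% of all features tested were called higher and 1.5% lower, and 1.5% and 1.31% of those with a CK mean of at least 5 CPM. At T72 against T24 the median log2 change was 0.68, with 0.00 over all features, and 5 of 101 were called higher, and 0 lower, where 0.152% of all features were called higher and 1.03% lower, and 0.481% and 0.359% of those with a CK mean of at least 5 CPM. Both comparisons share the T24 libraries with the one above, and the rule fixed their direction, so they add no separate evidence. Leaving out T24 replicate 1, 2 or 3 left 0, 0 or 1 call at T48 and 0 calls each at T72. Leaving out T48 replicate 1 left 6 at T48. At T72, leaving out T72 replicate 1, 2 or 3 left 0, 1 or 1. Over all features, both directions together, the full fit called 1500 at T48 and 899 at T72. Without T24 replicate 1, 2 or 3 these were 209, 208 and 262 at T48, and 145, 136 and 182 at T72. Without T48 replicate 1 there were 792 at T48. Without T72 replicate 1, 2 or 3 there were 341, 494 and 463 at T72.

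The rule holds the T48 and T72 means within 1.5-fold of CK, so their nearness to CK is a description of the choice and not a finding. Within that limit they varied from transcript to transcript. The T48 mean was 0.986 times the CK mean at the median, with a range of 0.681 to 1.45. It lay above CK in 47 transcripts and below CK in 54, and within 1.2-fold of CK in 72. At T72 the ratio to CK was 0.949 at the median and ranged from 0.687 to 1.38, with 38 transcripts above CK, 63 below and 66 within 1.2-fold. The corresponding medians over all features with a CK mean of at least 5 CPM were 0.991 at T48 and 1.02 at T72.

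The order of the 3 high groups differed between transcripts. CK was highest in 40 of them, T48 in 35 and T72 in 26. The commonest orders, with 23 transcripts each, were CK above T48 above T72 and T48 above CK above T72. All T48 libraries lay above all CK libraries in 3 transcripts and below them in 1, where 9.71% and 11.3% of all features with a CK mean of at least 5 CPM did so. All T72 libraries lay above all CK libraries in 3 and below them in 3, where the shares over all such features were 21.6% and 19%. The rule's limits on the T48 and T72 means keep these counts low.

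The limit of 1.5-fold also leaves little room for calls against CK, so nothing is read from their number. At T48 against CK, 0 were called by edgeR in either direction, and 2 had an unadjusted p below 0.05, all higher than CK. DESeq2 and limma also called 0, where over all features, both directions together, they called 4893 of 86209 and 102 of 76273. At T72 against CK, 0 were called by edgeR, and 6 had an unadjusted p below 0.05, all lower than CK. DESeq2 and limma again called 0, where over all features they called 9166 of 78980 and 3185 of 76273. Of all features tested in edgeR, 0.378% were called higher and 0.313% lower at T48, and 2.06% higher and 2.69% lower at T72. Of those with a CK mean of at least 5 CPM the shares were 0.602% and 1.12% at T48, and 3.96% and 8.84% at T72. For T72 against T48 edgeR called 0, with 8 lower at an unadjusted p below 0.05. There limma called 0 of the 101, with 1803 of 76273 over all features, both directions together. DESeq2 called 2 of the 101, both lower, with 5553 of 78980 over all features. In edgeR 1.04% of all features were called higher and 1.31% lower in that comparison. Of those with a CK mean of at least 5 CPM the shares were 2.96% and 4.09%. The share of all features with an unadjusted p below 0.05 was not counted, so nothing is read from the numbers at that threshold. A missed threshold does not show that the level had returned.

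All T72 libraries lay below all T48 libraries in 7 dip transcripts and above them in 0, where 14.6% and 18.1% of all features with a CK mean of at least 5 CPM did so. Across the whole list, T72 replicate 3 was the lowest of the T72 libraries in 63 of the 101 transcripts (62.4%), against 34.5% of all features with a CK mean of at least 5 CPM. T72 replicate 1 was the highest in 52 (51.5%), against 34.3%. The order of replicates within a time was not used by the rule, but it may not be independent of a choice of features low at T24. T72 replicate 3 had the highest mean correlation of centred levels with the T24 libraries, at 0.248. For T72 replicates 1 and 2 it was 0.005 and -0.001. Whether this likeness sets the order was not tested.

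T72 replicate 3 was also the library that most often stood next above the T24 group. It was the lowest of the 9 other libraries in 21 transcripts (20.8%, against 11.5% of all features with a CK mean of at least 5 CPM), followed by CK replicate 1 in 19 (18.8%, against 10.4%) and T48 replicate 1 in 15 (14.9%, against 12.9%). CK replicate 3 and T48 replicate 3 were lowest in 5 and 4. When T72 replicate 3 was left out, 159 features met the rule, and 95 of the 101 were among them. Without T48 replicate 1 there were 163, with 93 of the 101, and without T24 replicate 1 there were 153, with 98 of the 101.

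The IDs end in a digit, 1 to 4, which the file does not explain and which the rule did not use. Whether the suffixes mark separate assemblies, in which 1 transcript could be listed as several features that divide its counts, the sources used here do not state. A level in CPM is therefore that of a feature, and the part of the suffixes in the dip was not tested. The libraries divided by suffix. Suffix 1 features took 27.3%, 27.6% and 27.5% of the counts in the T24 libraries and 27.5% in T72 replicate 3, against 24.9% to 26.0% in the other 8 libraries. Suffix 3 features took 26.2% to 26.3% in CK replicate 3 and in T72 replicates 1 and 2, and 23.8% to 24.9% elsewhere. Suffix 4 took 25.9% to 26.8% in CK replicate 1 and T48 replicates 1 and 3, and suffix 2 took 26.3% and 26.8% in CK replicate 2 and T48 replicate 2. The T24 group is thus the only time at which all 3 libraries were highest in the same suffix.

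Dip transcripts were spread over all 4 suffixes but unevenly. Suffix 1 was carried by 19 of them (18.8%, against 25.8% of all features with a CK mean of at least 5 CPM), suffix 2 by 20 (19.8%, against 24.5%), suffix 3 by 35 (34.7%, against 24.4%) and suffix 4 by 27 (26.7%, against 25.3%). The balance turned with the scaling. When CPM was computed within each suffix, an alternative chosen after seeing the data, 107 features met the rule, 80 of the 101 among them. Suffix 1 was then carried by 37 of the 107 (34.6%), suffix 2 by 25 (23.4%), suffix 3 by 31 (29.0%) and suffix 4 by 14 (13.1%).

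**Figure D5:**
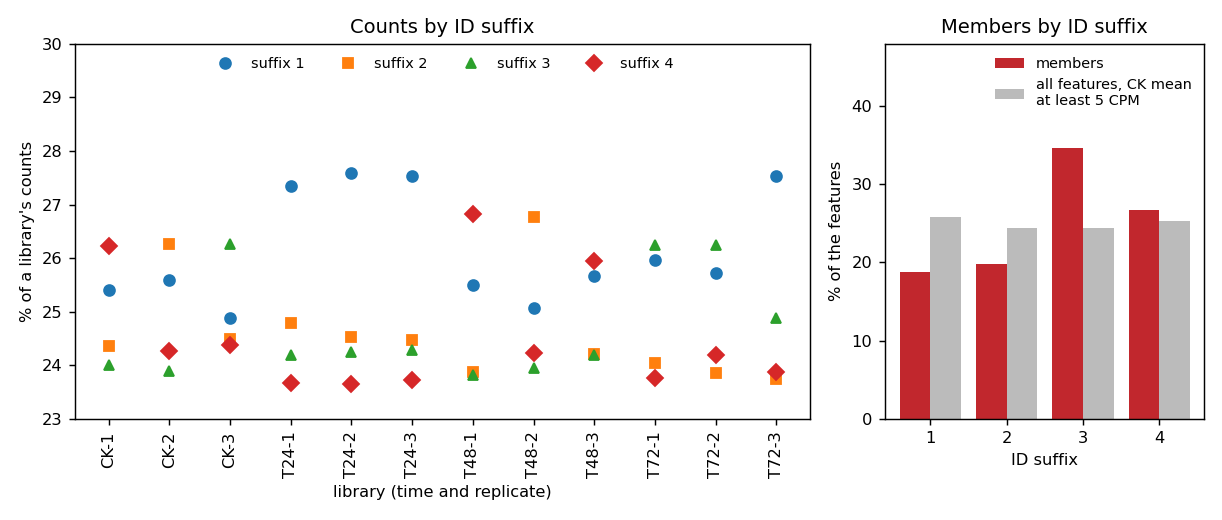
Left, the share of each library's counts in features of each ID suffix, on an axis that starts at 23%. Right, the share of the 101 dip transcripts and of all 19761 features with a CK mean of at least 5 CPM that carry each suffix. Suffix 1 takes 27.3% to 27.6% in the 3 T24 libraries and in T72 replicate 3, and is carried by 18.8% of the dip transcripts, against 25.8% of all such features.

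The rule gives each dip transcript a low T24 level whatever its suffix, so the sums by suffix describe size only. Summed over the 19 transcripts of suffix 1, the level was 347, 473 and 465 CPM in CK, 233, 236 and 224 CPM at T24, 382, 456 and 404 CPM at T48, and 473, 417 and 326 CPM at T72. Over the 35 of suffix 3 it was 511, 653 and 670 CPM in CK, 358, 360 and 327 CPM at T24, 563, 575 and 765 CPM at T48, and 600, 632 and 535 CPM at T72. In both sums T72 replicate 3 was the lowest T72 library. The median dip below CK was 38.6% for suffix 1, 47.9% for suffix 2, 41.0% for suffix 3 and 37.1% for suffix 4.

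The largest ratio within suffixes 2 and 4 belonged to faint transcripts, shown here by position after their values were seen. That of suffix 2 had 5.70, 8.09 and 2.90 CPM in CK, 2.47, 2.01 and 1.60 CPM at T24, 3.67, 5.51 and 6.35 CPM at T48, and 4.98, 8.0 and 3.72 CPM at T72. That of suffix 4 had 3.86, 5.46 and 8.22 CPM in CK, 1.70, 2.68 and 2.08 CPM at T24, 3.29, 8.47 and 6.52 CPM at T48, and 4.84, 4.82 and 4.13 CPM at T72. In the first the lowest CK library came close to the highest T24 library, and in the second T48 replicate 1 was nearest to it.

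The 101 IDs hold 101 assembled genes in 100 assembled components, counted within a suffix. Among all features with a mean of at least 5 CPM, 0 pairs shared an assembled gene and suffix. Having a gene each is therefore not particular to the dip transcripts. A component here means the features that share the number after DN in the ID, and the suffix, whatever the number after c. Whether the sequences of a component overlap was not checked. The same gene number under another suffix showed no shared pattern, with a median Pearson correlation of -0.01 over 3816 pairs of features at a mean of 5 CPM or more and across the 12 libraries. Features of the same component and suffix had a median correlation of 0.28 over 1004 pairs. They may share reads, and these pairs are not independent.

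Few features outside the list shared a component with a dip transcript. The components of 27 dip transcripts held 42 features outside the list, of which 13 had a mean of at least 5 CPM. Of these 13, 8 had a T24 mean below their CK mean (61.5%, against 44.8% of all 20612 features at that level). In 6 of the 13 every T24 library lay below every CK library, and in 0 every T24 library lay above. That separation held for 21.3% and 23.3% of all features with a CK mean of at least 5 CPM. The median difference in log2(CPM + 1) between T24 and CK was -0.36 over the 13, with quartiles of -1.18 and 0.01, and 0.05 over all 20612. Nothing particular to these 13 is read from so few features.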

How the data were processed

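RNA of 12 root libraries was sequenced as paired reads. The submitters' processing notes name Trimmomatic, a read trimmer. How reads were assembled, aligned and counted is not given in the sources used. Values in the table are estimated counts, as deposited by the authors. They are not whole, and no header says how they were scaled. The Poisson intervals treat them as counts of reads and leave out any error in how the counts were estimated. CPM is the deposited count divided by the library total and multiplied by 1000000, without further scaling.

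Counts were rounded and fitted in edgeR 4.0.16 (R 4.3.3) with filterByExpr, TMM factors and 1 mean per group (glmQLFit, glmQLFTest, 8 residual degrees of freedom, two-sided contrasts). P-values were adjusted by Benjamini-Hochberg over all features tested. The procedure was also run on simulated counts with changes of known size. The share it recovered is not given here, so how many dips of this size it would miss is not stated. The plan named raw counts or, where estimated, rounding. Alternatives were RLE factors, library totals, DESeq2 1.42.0, other filters, a replicate block, the 2 groups alone, averaged T24 libraries and each library left out. Limma 3.58.1 with a variance per group and scaling within ID suffixes were added after seeing the data. Components were compared on log2(CPM + 1).

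The transcripts, lists and tests were chosen with earlier results of these data known. By rule, the 2 transcripts with the largest ratio are given by ID, and others by position: largest, median and lowest ratio and most abundant. The transcripts of ranks 4, 5, 6, 10 and 48 were not in that plan. They and the largest ratios within suffixes 2 and 4 were picked as examples after their values were seen. Features of the same assembled gene and suffix were to be named too, but there were 0 such pairs.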

Additional observations from a re-analysis of the deposited data

How the results depend on the processing

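The number of dip transcripts (101) became 50 with a dip of at least 1.5-fold, 59 with a narrower limit on the return, 64 with a CK mean of at least 10 CPM, 385 without the separation of libraries (before the limit of 200), 171 with the T24 libraries averaged, and 102 to 163 with 1 library left out. It stayed within 1.5 times with TMM (148, with 91 of the 101) and RLE factors (140, with 80), a return to within 2-fold (137) and scaling within ID suffixes (107). Calls at T24 against CK (36) became 13 with library totals, 80 with DESeq2 and 18 with no filter. They became 55 on the 2 groups alone, 60 with limma and 0 to 51 with 1 library left out. Calls over all features changed as well, from 3145 of 76273. In the same order they were 3329 of 76273, 7904 of 82557, 2103 of 98328, 6789 of 63517 and 6287 of 76273. With 1 library left out they were 302 to 5233. At T48 against T24 (15) the calls among the 101 became 53 with DESeq2, 23 with the stricter filter and 35 with limma. With 1 library left out they were 0 to 18. Over all features, 1500 of 76273 became 4674 of 80775, 1821 of 50363 and 4186 of 76273, and 208 to 2033 with 1 library left out. At T72 against T24 (5) the calls among the 101 became 25 with DESeq2, 38 on the 2 groups alone and 42 with limma. With 1 library left out they were 0 to 7. Over all features, 899 of 76273 became 3012 of 80775, 5496 of 66054 and 5767 of 76273, and 136 to 1372 with 1 library left out. At T48 and at T72 against CK the calls among the 101 were 0 in each alternative run. At T72 against T48 (0) DESeq2 gave 2. Over all features, 1794 of 76273 became 5553 of 78980 there. Of the alternatives run, none turned the direction of a call. The transcripts described by largest, median and lowest ratio and by abundance were not called in the fit reported. Over all comparisons, 28 of their values under an alternative passed the threshold and 602 did not. The cause of these changes was not tested.

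Replicate numbers gave no clear sign of a pairing of the samples. Same-numbered libraries had correlations of their deviations from the group means from -0.20 to 0.21. Of 36 comparisons, 12 placed a library closest to its own number. With the replicate block the calls became 10 at T24 against CK, 6 at T48 against T24 and 0 at T72 against T24. Over all 76273 features tested the block gave 1474, 686 and 267 calls in these comparisons.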

Other observations

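The libraries also divided by ID suffix in features that 1 library held alone, with at least 50 counts there and at most 3 in each of the other 11. T48 replicate 1 held 546 such features, all of suffix 4, and T48 replicate 2 held 495, all of suffix 2. In CK the numbers were 16 (suffix 4), 21 (suffix 2) and 56 (suffix 3) for replicates 1, 2 and 3, T48 replicate 3 held 20 (suffix 4), and T72 replicates 1, 2 and 3 held 78 (suffix 3), 22 (suffix 3) and 12 (suffix 1). In each of these 9 libraries a single suffix covered all such features, and it was the suffix in which that library's share of counts was high. The T24 libraries held 0 such features each.

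All 3 T24 libraries together held 428 features at 50 counts or more that had at most 3 counts in each other library, of which 383 carried suffix 1 and 45 suffix 2. The converse, at least 50 counts in all 9 other libraries and at most 3 in each T24 library, was found in 0 features, so no dip transcript was absent at 24 h by this measure.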
